A study of Mus musculus with 2 samples.

Results

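The bone morphogenetic protein (BMP) pathway and Id genes were the rows of the deposited table named Bmp4, Bmpr1a, Bmpr2, Smad1, Smad5, Smad4, Id1, Id2 and Id3, with every transcript biotype. They were 9 of 29833 genes and filled 13 of 37178 gene records, where a gene record is 1 gene with 1 transcript biotype. Of these, 9 records were protein-coding and 4 were long noncoding (lncRNA) records of Smad1, Smad5, Smad4 and Id3. Total RNA was measured by RNA-seq in 2 replicates of 1 group, F123 mouse embryonic stem cells (mESCs). F123 is 1 male hybrid line, paternally CAST and maternally S129/Jae, so that reads over a variant between the parents can be assigned to the CAST or the S129 allele. The labels name no treatment or mutation, and the cells were kept in medium with 15% KSR and 1000 U/ml LIF, whose concentration was doubled once the cells left their layer of embryonic fibroblasts. They spent at least 2 passages on gelatin before harvest at about 48 h. The table holds both replicates as 1 value, so no spread between replicates could be computed, and errors below cover counting error only. Since 1 direction of 1 cross was measured, strain and parent of origin cannot be told apart.

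BMP ligands are secreted dimers that bring together type I and type II serine/threonine kinase receptors. The type II receptor phosphorylates the type I receptor, which phosphorylates SMAD1 and SMAD5, and these enter the nucleus with SMAD4 and bind DNA. The Id genes are classical direct targets and encode helix-loop-helix proteins without a DNA-binding domain, which sequester E proteins such as TCF3. In mESCs, BMP4 acts together with LIF in holding the cells in self-renewal, and Id proteins are known as effectors of that action.

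Id1 had the largest allelic difference among the BMP and Id genes, with 89.3% of its allelic reads from CAST. The ligand gene Bmp4 was also higher on CAST, with 73.0% of its reads, whereas the type I receptor gene Bmpr1a was higher on S129 and had 32.2% of its reads from CAST. Smad5 leaned to CAST by less than 2-fold. Bmpr2, Smad1 and Smad4 did not pass the test against equal shares, and no variant was counted in the kept records of Id2 and Id3.

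RefSeq promoter windows were matched by symbol for 7 of the 9 genes, in 9 windows, each running 250 bases before to 50 bases after a start site on GRCm38.p6. The stretches before the start that lie in no exon of the gene are shown for the ligand gene and the receptor gene with an allelic difference, and for Id2, a target gene with a GC-rich SMAD motif. The annotated genes of Bmpr1a and Id2 begin further upstream, at 34503341 and 25097140, so their stretches lie inside the gene's span. The Bmp4 stretch lies outside its annotated gene. Capitals mark GGCGCC, a GC-rich sequence known to be bound by SMAD1 and SMAD5. The letters are those of the reference genome, and the F123 alleles of these windows were not read here.
Bmp4, chr14:46390670-46390919, minus strand, bases 250 to 1 before the start: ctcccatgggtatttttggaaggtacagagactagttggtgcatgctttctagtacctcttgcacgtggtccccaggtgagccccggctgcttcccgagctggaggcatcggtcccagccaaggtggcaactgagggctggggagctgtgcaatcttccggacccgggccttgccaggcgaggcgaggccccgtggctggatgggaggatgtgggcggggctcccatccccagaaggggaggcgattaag
Bmpr1a, chr14:34502688-34502796, minus strand, bases 250 to 142 before the start: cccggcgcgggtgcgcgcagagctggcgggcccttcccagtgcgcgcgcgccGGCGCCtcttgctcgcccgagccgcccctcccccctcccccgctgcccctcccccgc
Id2, chr12:25096254-25096342, minus strand, bases 250 to 162 before the start: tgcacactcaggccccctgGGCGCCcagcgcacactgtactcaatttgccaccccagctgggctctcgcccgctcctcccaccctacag

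GGCGCC, which reads the same on both strands, was present in the 300-base windows of Bmpr1a, Bmpr2 and Id2 and in 2 overlapping windows of Smad5, against 11.9% of all 32851 windows. The Bmp4, Id3 and Smad1 windows held no match. The 5-letter SMAD box CAGAC, searched on both strands, had 2 matches in the Id3 window and 1 in the most downstream Smad5 window, and was present in 49.6% of all windows. The full SMAD3 and SMAD4 palindrome GTCTAGAC was present in 0.213% of all windows and in none of the members' windows. These matches are letters in a window and were not tied to the allelic reads. The annotated start of the transcript kept for Bmp4 lay 119 bases downstream of the RefSeq start, that for Bmpr1a 18 bases downstream and that for Id2 5 bases downstream. With negative values for upstream, the kept start lay at −879 bases for Bmpr2, −325 for Id3 and −90 for Smad1. For the Smad5 windows it lay at 0, −42 and −658. The Bmpr2 and Id3 windows and the most downstream Smad5 window thus lie wholly inside the kept transcript, and so do their matches.

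All 13 records passed the minimum of 1 TPM used to call a record expressed, as did 17956 of all 37178 records. Levels are TPM (a transcript abundance, reads scaled by transcript length and library depth) over exons and introns of the kept transcript, with both replicates in 1 value. In bulk RNA, fewer cells with a transcript and less of it per cell cannot be told apart. The order of the levels below is a description, since neighbours in it could not be tested against replicate spread.

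Id1 stood at the top of the members with 95.1 TPM, a level above that of 96.7% of expressed records. Id2 followed among the protein-coding records with 13.7 TPM, and Id3 was the lowest with 2.31 TPM, so that the Id genes held both ends of the order. The only ligand gene among the members, Bmp4, had 12.2 TPM, above 69.3% of expressed records. The receptor gene records were low, with 2.57 TPM for Bmpr1a and 3.14 TPM for Bmpr2, above 23.8% and 29.2% of expressed records. The Bmpr1a record covers 63.3% of its gene's span and that of Bmpr2 100%, so both levels are not like measures. Among the Smad genes, Smad4 and Smad5 had similar levels of 8.33 and 8.17 TPM, and Smad1 had 2.98 TPM. The median of the 13 records was 6.53 TPM, against 6.24 TPM for all expressed records.

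The lncRNA records ran from 2.03 TPM for Id3 through 2.58 TPM for Smad1 and 6.53 TPM for Smad5 to 15.8 TPM for Smad4. Only the Smad4 lncRNA record had a higher level than the protein-coding record of its gene. These records are noncoding transcripts of the same genes, and those of Smad1, Smad5 and Smad4 lie inside the protein-coding record, with which they share reads. The Id3 lncRNA record overlaps the Id3 protein-coding record in part and can share reads with it. Counting over exons only left all 13 records above 1 TPM. It moved Bmpr1a the most, to 1.55 TPM, and raised Id1 to 116 TPM and Id2 to 16.7 TPM.

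**Figure D1:**
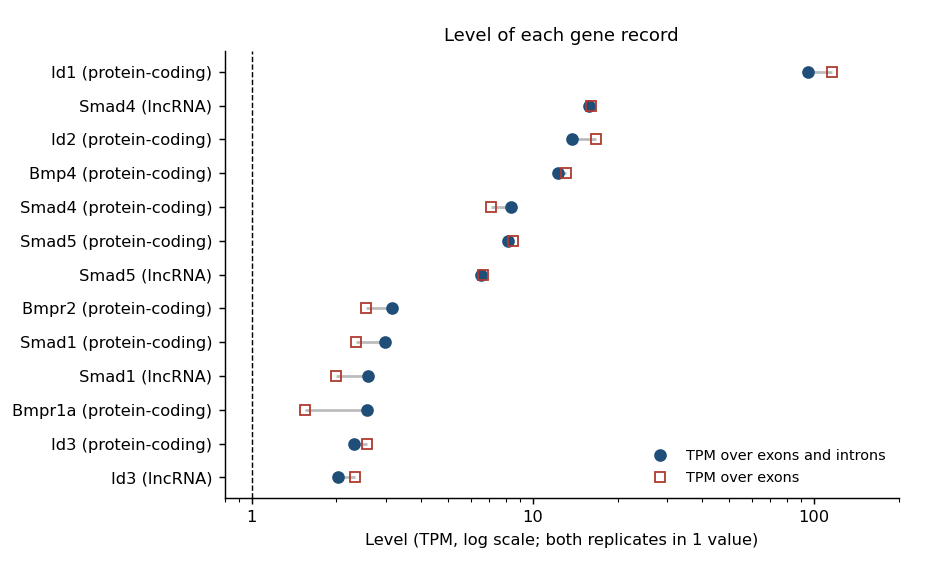
Level of each of the 13 gene records in TPM on a log axis, over exons and introns (filled circles) and over exons only (open squares), with both replicates in 1 value and no error bar. Id1 lies far to the right at 95.1 TPM, all records lie right of the dashed line at 1 TPM, and Bmpr1a has the widest gap between both measures.

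The labelled cell type was checked with marker genes, taking the highest TPM over a gene's records. All 9 mESC markers had at least 1 TPM, between 12.1 TPM for Tfcp2l1 and 381 TPM for Dppa5a. Of 8 fibroblast markers, 3 had at least 1 TPM, with 7.0 TPM for Thy1, 2.90 TPM for Col1a1 and 1.01 TPM for Col1a2, and the other 5 lay between 0.0115 and 0.278 TPM. Markers of primitive endoderm passed 1 TPM in 4 of 5 genes with at most 21.4 TPM (Sox17), mesoderm markers in 2 of 4 genes with at most 2.65 TPM (Eomes), and neural markers in 3 of 3 genes with at most 16.6 TPM (Neurod1). The part of such cells in the levels and shares of the BMP and Id genes was not tested. Allelic reads of all records summed to 16343693, of which 50.4% came from CAST.

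Allele-specific expression (ASE) was called where the fold change between the alleles was at least 2, the adjusted p of the exact binomial test against equal shares at most 0.05 and the level at least 1 TPM. Allelic reads were present for 10 records of 7 genes, with 185 to 1589 reads and a median of 497.5, against a median of 397 reads over all 15935 tested expressed records. ASE was called in 3 of these 10 records, Bmp4 and Id1 toward CAST and Bmpr1a toward S129. Over all tested expressed records, 14.1% were called, 8.33% toward CAST and 5.78% toward S129. At any fold, 4 of the 10 records passed the adjusted p, 3 toward CAST and 1 toward S129, against 48.3% of all tested records. CAST reads were more numerous in 5 records and S129 reads in the other 5. The median log2 fold change of CAST over S129 was −0.01 over the 10 records and 0.01 over all tested records, and the median size of the log2 fold change was 0.32 and 0.36. With 10 records that partly share reads, these shares describe the genes and were not tested against the background.

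**Figure D2:**
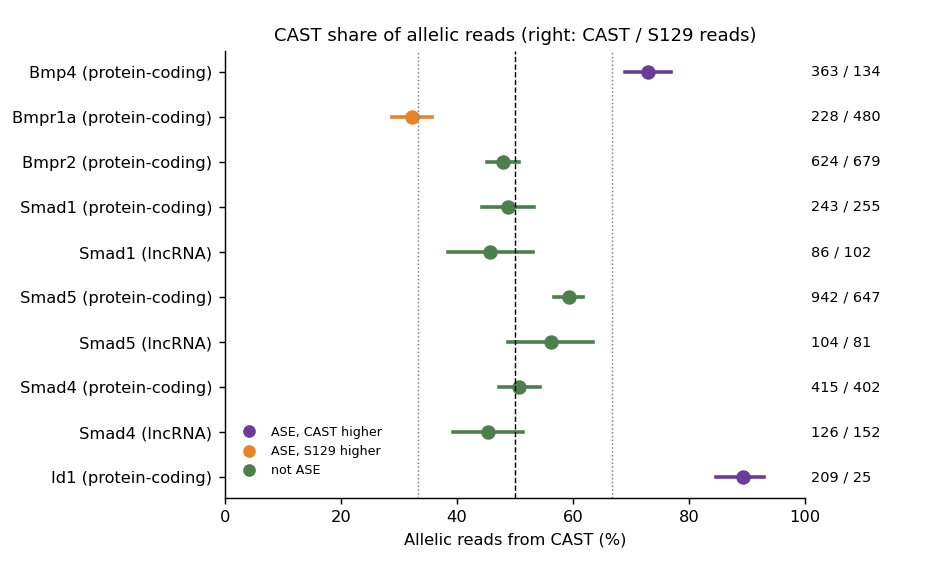
Share of allelic reads from CAST (percent) for the 10 gene records with allelic reads, with exact 95% intervals and the CAST and S129 reads at the right. The dashed line marks 50% and the dotted lines 2-fold differences. Id1 and Bmp4 lie right of the dotted line and Bmpr1a left of it, and the other 7 records lie between the dotted lines.

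The ligand BMP4 induces mesoderm and germ cells in the embryo. Its gene (ENSMUSG00000021835, chr14:46383707-46390550, minus strand, mm10) had 363 CAST and 134 S129 reads at 8 variants, 7 in exons and 1 in an intron. The CAST share was 73.0%, with an exact interval of 68.9% to 76.9%. The log2 fold change was 1.44 (SE 0.15 from the counts), a 2.71-fold difference whose adjusted p was 2.91e-24 (exact binomial test with Benjamini-Hochberg adjustment over all records). Its size exceeded that of 90.2% of all tested records. The whole interval lay beyond 2-fold on the CAST side. CAST carried the base that differs from the reference genome at 5 of the 8 variants and S129 at 3, while over all records S129 carried it at 11.1%. The lncRNA Gm15222 on the opposite strand overlapped Bmp4 and had 3 CAST and 6 S129 reads at 1 variant. Whether that variant lies inside the Bmp4 record was not checked. Subtracting these reads, which were not separated by strand, left 360 CAST and 128 S129 reads in Bmp4 and a log2 fold change of 1.49. With a beta-binomial spread beyond counting error (intra-gene correlation 0.05), the adjusted p was 0.450 and the call was lost.

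BMPR1A is the type I receptor through which BMP2 and BMP4 signal in the early embryo. Its gene (ENSMUSG00000021796, chr14:34443933-34502528, minus strand, mm10) had 228 CAST and 480 S129 reads at 21 variants, of which 18 were intronic and 3 exonic. CAST, the allele with fewer reads, carried the base that differs from the reference genome at 13 of the 21 variants. S129 carried it at 8 of the 21, while over all records S129 carried it at 11.1% of the variants. The part of this in the allelic share was not tested. The CAST share was 32.2%, with an exact interval of 28.8% to 35.8%. The log2 fold change was −1.07 (SE 0.12), a 2.11-fold difference toward S129 with an adjusted p of 1.84e-20 (exact binomial test, Benjamini-Hochberg). The difference was far from equal shares but close to the minimum for a call: the interval ran from −1.31 to −0.84 and held the 2-fold limit, which is a CAST share of 33.3%. The kept transcript has 5 exons with 641 bases and covers 63.3% of the gene's span, so that downstream exons of the gene are not in this record. Gm17110, an lncRNA on the opposite strand, overlapped this record and had 7 CAST and 15 S129 reads at 1 variant. Whether that variant lies inside the Bmpr1a record was not checked. With these reads subtracted, the log2 fold change of Bmpr1a was −1.07. The call was lost with the same beta-binomial spread (adjusted p 0.858).

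BMPR2 is the type II receptor that binds BMP ligands and activates the type I receptor, and its gene is mutated in heritable pulmonary arterial hypertension in humans. Bmpr2 (ENSMUSG00000067336, chr1:59763400-59879014, plus strand) had 624 CAST and 679 S129 reads at 64 variants, the most variants among the members. Its CAST share of 47.9% (45.1% to 50.6%) gave a log2 fold change of −0.12 (SE 0.08) and an adjusted p of 0.225 (exact binomial test, Benjamini-Hochberg). The interval of −0.28 to 0.04 lay well inside the 2-fold limits. The kept Bmpr2 transcript covers the whole span of its gene, with 13 exons and 12899 exon bases. Its level and that of the shorter Bmpr1a record are therefore not like measures. Of the 2 receptor genes, only Bmpr1a had an interval that reached a 2-fold difference.

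SMAD1 and SMAD5 are close relatives that are phosphorylated by BMP type I receptors. Smad5 (ENSMUSG00000021540, chr13:56703010-56742377, plus strand) had the most allelic reads in sum among the members, with 942 CAST and 647 S129 reads at 47 variants. Its CAST share was 59.3% (56.8% to 61.7%), a log2 fold change of 0.54 (SE 0.07) with an adjusted p of 1.14e-12 (exact binomial test, Benjamini-Hochberg). The adjusted p was 0.268 with a beta-binomial correlation of 0.01 and 1 with 0.05. The 1.46-fold difference was below the minimum for ASE, and 64.3% of all tested records had a smaller one. Smad1 (ENSMUSG00000031681, chr8:79338395-79399518, minus strand) had 243 CAST and 255 S129 reads at 18 variants and a CAST share of 48.8% (44.3% to 53.3%). Its log2 fold change of −0.07 (SE 0.13) had an adjusted p of 0.747 and an interval of −0.33 to 0.19. The intervals of the CAST shares of Smad5 and Smad1 did not overlap, although the difference between the genes was not itself tested.

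SMAD4 is the common partner that joins the phosphorylated SMAD proteins of the BMP and of the TGF-beta and activin branches. Smad4 (ENSMUSG00000024515, chr18:73639009-73703780, minus strand) had 415 CAST and 402 S129 reads at 44 variants, 41 of them intronic. Its CAST share of 50.8% (47.3% to 54.3%) was the closest to equal among the members. The log2 fold change was 0.05 (SE 0.10), with an interval of −0.16 to 0.25 and an adjusted p of 0.793 (exact binomial test, Benjamini-Hochberg).

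The lncRNA records of the Smad genes are no second measurement, because their reads were also counted in the protein-coding records. The Smad5 lncRNA record had 104 CAST and 81 S129 reads (56.2% CAST, 48.7% to 63.5%, adjusted p 0.184 by the exact binomial test). The rest of the protein-coding record, at 37 other variants, had 838 CAST and 566 S129 reads and a CAST share of 59.7% (57.1% to 62.3%). Both parts of Smad5 thus had more CAST reads, and their intervals overlapped. The Smad1 lncRNA record had 86 CAST and 102 S129 reads (45.7%, 38.5% to 53.2%), and the rest of Smad1 had 157 CAST and 153 S129 reads (50.6%, 44.9% to 56.3%). The Smad4 lncRNA record had 126 CAST and 152 S129 reads (45.3%, 39.4% to 51.4%), and the rest of Smad4 had 289 CAST and 250 S129 reads (53.6%, 49.3% to 57.9%). The intervals of all these parts of Smad1 and Smad4 held 50%.

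ID1 is a helix-loop-helix inhibitor and one of the most rapidly induced BMP targets. Id1 (ENSMUSG00000042745, chr2:152736251-152737410, plus strand, mm10) had 209 CAST and 25 S129 reads, all at 1 exonic variant. The CAST share was 89.3% (84.6% to 93.0%), and the log2 fold change of 3.06 (SE 0.31) stood for an 8.36-fold difference with an adjusted p of 5.06e-36 (exact binomial test, Benjamini-Hochberg). It was larger than that of 97.9% of all tested records, and the adjusted p with the beta-binomial spread was 0.00398. With 1 variant, no read could be counted at several variants, as it can in the other members. At this variant CAST carried the base that differs from the reference genome, so the allele with more reads was the non-reference allele. The value nonetheless rests on a single position: among all tested records with 1 variant 16.2% were called ASE, and among those with 1 variant and at least 100 reads 26.2% were (32 of 122). Among records with at least 2 variants 13.9% were called, and among records with at least 100 reads at any number of variants 11.9% were.

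ID2 and ID3 share the inhibitory helix-loop-helix of ID1. The Id2 record (ENSMUSG00000020644, chr12:25095130-25096087, minus strand) covers 958 bases in 1 exon and 28.7% of the gene's span, and Id3 (ENSMUSG00000007872, chr4:136143497-136145392, plus strand) has records of both biotypes. No variant was counted in these 3 records, so their allelic balance could not be measured, and whether the CAST excess of Id1 extends to them cannot be said from these data.

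**Figure D3:**
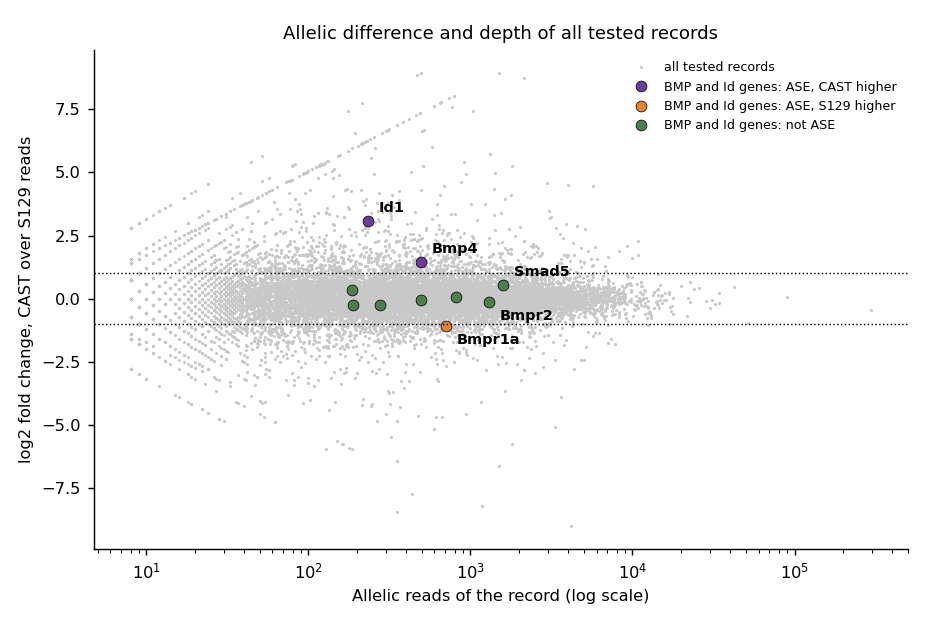
Log2 fold change of CAST over S129 against allelic reads (log axis) for all 15935 tested expressed records (gray) and the 10 records of BMP and Id genes (colored), with dotted lines at 2-fold. Folds of records without reads of 1 allele are lower bounds. Id1 and Bmp4 lie above the upper line at 234 and 497 reads, and Bmpr1a lies just below the lower line at 708 reads.

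The records of other genes that reached within 500 kb of a member were examined to see whether the 3 ASE genes lay among records of the same direction. Around Id1, 22 records of 17 genes were tested. Of these, 0 were called toward CAST and 1 toward S129, and their median CAST share was 51.4%, with a highest share of 70.6%. All of them lay below the 89.3% of Id1. Around Bmp4, 8 records of 6 genes had a median CAST share of 58.6% and a highest share of 61.3%, below the 73.0% of Bmp4, with 0 called toward CAST and 1 toward S129. Around Bmpr1a, 16 records of 12 genes had CAST shares of 20% to 100% with a median of 47.7%, and 2 were called toward CAST and 1 toward S129. The 10 records near Bmpr2, 8 near Smad1, 3 near Smad5 and 5 near Smad4 included 1, 1, 0 and 0 called toward S129 and none toward CAST. Their medians ran from 46.2% to 50.1%.

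Id2 and Id3, which could not be tested themselves, had calls toward CAST nearby. Of 7 records near Id2, 3 records of 2 genes were called toward CAST and 0 toward S129, and of 26 records near Id3, 4 were called toward CAST and 2 toward S129, against 8.33% and 5.78% of all tested records. The regions also differed in which parent carries the reference base. S129 carried the non-reference base at 73.7% of the variants near Bmp4, 47.8% near Bmpr1a, 46.5% near Id2, 33.7% near Id3 and 16.1% near Id1, against 12.3% near Smad4, 0% near Bmpr2, Smad1 and Smad5 and 11.1% over all records. The part of this in the allelic shares was not tested.

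**Figure D4:**
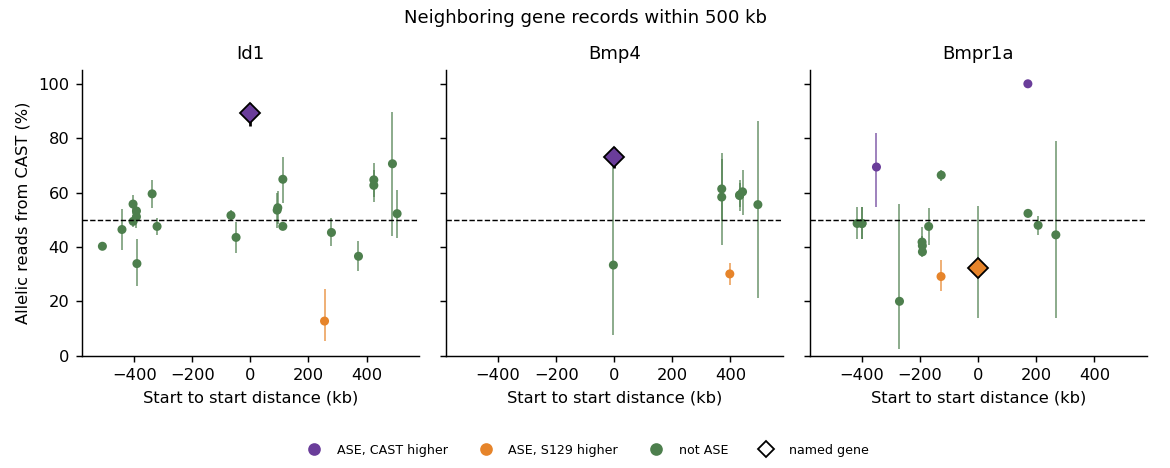
Share of allelic reads from CAST (percent) of each tested record within 500 kb of Id1, Bmp4 and Bmpr1a against the distance between starts in kb, with exact 95% intervals and the named gene as a diamond. The diamonds of Id1 and Bmp4 stand above the points of all their neighbors, and that of Bmpr1a lies among neighbors on both sides of 50%.

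Other genes of the pathway were taken from a list of 60 genes by role, of which 56 were in the table, 32 had a record with at least 1 TPM and 29 had tested records. The other 4 were not analysed here. Of 41 tested records, 3 were called ASE toward CAST and 1 toward S129, or 9.76%, against 14.1% of all tested records. At any fold, 15 of the 41 passed the adjusted p, 4 toward CAST and 11 toward S129 (36.6%, against 48.3%). Their median log2 fold change was −0.05.

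Among other ligands, Gdf3, a relative of Nodal and BMPs in pluripotent cells, was the highest at 57.8 TPM. It had 888 CAST and 1028 S129 reads and a log2 fold change of −0.21 (SE 0.07, adjusted p 0.00420 by the exact binomial test). Bmp8b, in its lncRNA record, had 132 CAST and 134 S129 reads, and Bmp2 was at 1.12 TPM without a counted variant. Of 3 tested ligand records, 0 were called ASE. The receptors and co-receptors had 6 tested records, and 0 passed the adjusted p at any fold. The type II receptor gene Acvr2a had 228 CAST and 204 S129 reads, the type II receptor gene Acvr2b 22 CAST and 19 S129 reads, and the co-receptor gene Rgmb 103 CAST and 74 S129 reads. Bmpr1a was thus the only tested expressed receptor that was called ASE. The log2 fold change intervals of Acvr2b (−0.74 to 1.18) and of the Rgmb lncRNA record (−0.27 to 1.58) reached past 2-fold. With so few reads, a 2-fold difference in these records was not excluded. Smad7, which encodes an inhibitory SMAD, had 307 CAST and 328 S129 reads. The protein-coding record of the inhibitory Smad6 is only 272 bases long and had 8.22 TPM and no counted variant. The lncRNA record of Smad6 had 0.436 TPM.

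The extracellular antagonists and modulators had 8 tested records, of which 4 passed the adjusted p, all toward CAST, and 3 were called ASE, against 25.4% of all tested records toward CAST at any fold and 8.33% with ASE toward CAST. The 3 ASE records belong to 2 genes, since both records of Dand5 overlap and can share reads. Fst, which encodes the activin and BMP binding protein follistatin, had 125 CAST and 56 S129 reads, a log2 fold change of 1.16 (SE 0.23) and an adjusted p of 1.51e-06 (exact binomial test, Benjamini-Hochberg). This call was lost with the beta-binomial spread (adjusted p 0.832) and with all counts divided by 5 (adjusted p 0.140). Dand5, a secreted Nodal and BMP antagonist, had 122 CAST reads against 26 S129 reads in the lncRNA record, a log2 fold change of 2.23 (SE 0.31), whose call was lost with the beta-binomial spread (adjusted p 0.0841). Its protein-coding record had 20 CAST and 0 S129 reads at 1 variant, a fold of 6.67 if 3 S129 reads are put in place of 0. The exact interval of its CAST share began at 83.2%, a log2 fold change of 2.30. The call of this protein-coding record was lost with counts divided by 5 (adjusted p 0.410). The fourth record was Fstl1, named after its values were seen, with 463 CAST and 326 S129 reads. The BMP antagonist gene Nog had 24 CAST and 21 S129 reads, and Twsg1, whose product binds BMPs and chordin, had 1640 CAST and 1611 S129 reads.

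Of 15 tested records of intracellular and membrane regulators, 8 passed the adjusted p, all toward S129, and 0 were called ASE, with a median log2 fold change of −0.28. Skil, which encodes a SMAD corepressor, had 1404 CAST and 1831 S129 reads. Fkbp1a, whose product holds type I receptors inactive, had 426 CAST and 503 S129 reads, and Tob1, which encodes an inhibitor of BMP-activated SMADs, had 188 CAST and 252 S129 reads. These 8 records include both records of Fkbp1a and of Ski, which can share reads. In the protein-coding records, CAST carried the non-reference base at all 47 variants of Skil, 35 of Fkbp1a, 8 of Tob1 and 68 of Tab1. It did so at 37 of 40 variants of Ski and 65 of 78 of Ppm1a. S129 carried it at 11.1% of the variants of all records. The part of this in the allelic shares was not tested. Over all tested records, 22.9% passed toward S129 and 25.4% toward CAST, and no test of the list was made.

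Among targets and partners, Id4, the fourth Id gene, was called ASE toward S129, opposite to Id1. It had 12 CAST and 41 S129 reads at 2 variants and 3.65 TPM, with a log2 fold change of −1.77 (SE 0.47) and an adjusted p of 2.88e-04 (exact binomial test, Benjamini-Hochberg). Its CAST share of 22.6% had an interval of 12.3% to 36.2%. With the beta-binomial spread used above, the adjusted p was 0.436, and with counts divided by 5 it was 0.378, so that the call was lost in both. The E protein gene Tcf3, whose product is bound by ID proteins, had 916 CAST reads against 892 S129 reads in the protein-coding record. Its lncRNA record, which lies inside the protein-coding record, had 52.8 TPM with 340 CAST and 437 S129 reads. The log2 fold change there was −0.36 (SE 0.10, adjusted p 0.00173 by the exact binomial test), below the minimum for ASE. The E protein gene Tcf12 had 499 CAST and 541 S129 reads in the protein-coding record. Hes1, a helix-loop-helix repressor gene, had 20.3 TPM and no counted variant. Of the 4 Id genes, 2 could thus be measured, with more reads from CAST for Id1 and from S129 for Id4.

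**Figure D5:**
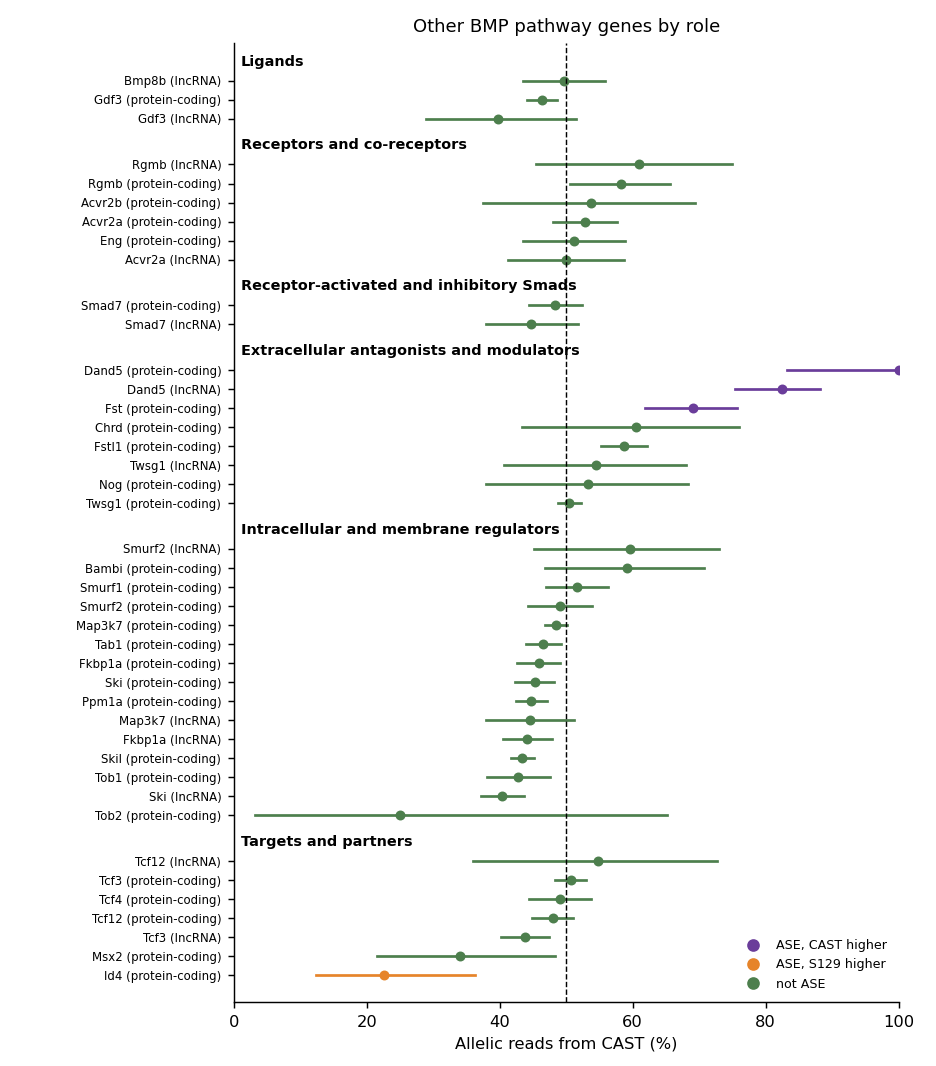
Share of allelic reads from CAST (percent) of the 41 tested records of other BMP pathway genes by role, with exact 95% intervals and a dashed line at 50%. The records called toward CAST are Fst and both Dand5 records, the one called toward S129 is Id4, and most intracellular and membrane regulators lie left of 50%.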

How the data were processed

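Total RNA of 2 F123 mESC replicates (1 µg each, stranded libraries, 75 bp paired reads) was sequenced. Per the study's methods and the submitters' processing notes, the authors aligned reads to mm10 with STAR (version 2.7.2c) and counted reads over heterozygous variants with GATK ASEReadCounter, which does not separate strands. The deposited allelic counts were summed by the authors over both replicates and over a gene's exonic and intronic variants, so a read can be counted at several variants. A minimum coverage of 20 reads per variant is stated in the methods, yet 8051 records, 2 of them of the members, held fewer on average. The deposited TPM values were made by the authors from HTSeq counts scaled by length and library size, with 1 transcript kept per gene and biotype. The authors' own p-values, fold changes, ASE ratios and classes are also in the table and were not used.

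CAST reads were tested against S129 reads per record with two-sided exact binomial tests (share 0.5) and Benjamini-Hochberg adjustment over the 18632 records with allelic reads. ASE needed an absolute log2 fold change of 1, an adjusted p of at most 0.05 and 1 TPM. Log2 fold changes had no reads added, but 3 reads were put in place of a count of 0. Their SE follow from the counts, and intervals are exact (Clopper-Pearson, 95%). Transcripts were matched to GENCODE M21. Named genes were all 9 members, every listed pathway record with ASE and, by role, up to 3 expressed genes with the highest TPM. Members and lists were chosen with earlier results of these data known. Alternatives were other read, TPM, fold and p minimums, null shares, beta-binomial spread, divided counts, 1 record per gene and added reads. Computations ran in Python 3.11.15 with scipy 1.17.1, pandas 2.3.3 and numpy 2.4.6, and figures were drawn with matplotlib 3.10.9.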

Additional observations from a re-analysis of the deposited data

How the results depend on the processing

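Each result was recomputed under up to 18 alternatives, 3 of them (TPM over exons, at least 2 variants, antisense reads subtracted) chosen after seeing the data. Of the recomputed values, 269 kept their ASE status or, for counts, stayed within 1.5 times. A further 8 counts moved by over 1.5 times, and 11 gene values lost their call. The direction of a fold change was not put to a test. Most alternatives leave the allelic reads as they are, and dividing or adding reads alike for both alleles cannot turn a direction. The count of 3 ASE records among the BMP and Id genes was 1 with a beta-binomial spread (intra-gene correlation 0.05) and 1 with a fold minimum of 3, and the record left was Id1. With this beta-binomial spread, 3.06% of all tested records were called, the count at any fold was 1, Bmp4 (log2 fold change 1.44) had an adjusted p of 0.450 and Bmpr1a (−1.07) of 0.858. With a correlation of 0.01 both kept their call, while Smad5, which is not ASE, lost its adjusted p (0.268, and 1 at 0.05). The fold minimum of 3 likewise ended the calls of Bmp4 at 1.44 and Bmpr1a at −1.07, whose folds lie below it. Id1 kept its call in all 17 alternatives it could enter (adjusted p 3.51e-36 to 0.00398) and could not enter that with at least 2 variants, where 2 ASE records were left. The adjusted p ranged from 2.15e-25 to 0.450 for Bmp4 and from 2.98e-21 to 0.858 for Bmpr1a, which falls below a TPM minimum of 5. The 4 ASE records of other pathway genes were 2 with at least 100 reads, 8 without a TPM minimum, and 1 with a TPM minimum of 5, with a correlation of 0.05 and with counts divided by 5. No paired analysis was possible because both replicates are pooled in the deposited values, and for the same reason no replicate was left out. With counts divided by 5, the calls of Id4 (53 reads), Fst (181 reads) and the protein-coding record of Dand5 (20 reads) were lost.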

Other observations

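Several genes of the pathway list had allelic reads but less than 1 TPM and entered no count of the report. Bmp1, a protease that cleaves the BMP antagonist chordin, had 86 CAST reads against 38 S129 reads in the protein-coding record (0.714 TPM) and 43 CAST reads against 1 S129 read in the lncRNA record (0.767 TPM). Tgfbr3, a co-receptor gene, had 74 CAST reads against 143 S129 reads in the protein-coding record (0.290 TPM). Bmp7 had 70 CAST and 59 S129 reads at 0.907 TPM, and the type I receptor gene Acvr1 had 12 CAST and 17 S129 reads at 0.426 TPM. These counts are given as values only.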
